A study of Mus musculus with 4 samples.

Results

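The 10 genes described here write, remove or read N6-methyladenosine (m6A), the most common internal modification of messenger RNA. They were chosen by name and matched by Ensembl identifier in the deposited count table, where all 10 of 10 had a row among 45706 genes. The writers are Mettl3, Mettl14 and Wtap, the erasers Fto and Alkbh5, and the readers Ythdf1, Ythdf2, Ythdf3, Ythdc1 and Ythdc2. The source label is medial basal radial glial cells, taken from mouse embryos of stage E18.5, and their RNA was sequenced in 4 replicate libraries. All 4 carry the strain label C57BL/6JOlaHsd and the genotype label Tubb-GFP/+, a heterozygous reporter, and the library titles carry the name of the dye DiI. The labels give a single group, so levels could be compared between genes and between libraries but not between conditions. Whether each library is a different animal is not stated, so every spread and p-value below measures only the variation between these libraries, which may be technical.

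m6A is laid down in the nucleus by a complex around the METTL3 and METTL14 proteins, which form a heterodimer, and it is recognised by proteins with a YTH domain, which steer a transcript towards splicing, export, translation or decay. Radial glia are the stem cells of the developing cortex, and basal radial glia are those without contact to the ventricle. In the embryonic mouse cortex, loss of Mettl14 is known to lengthen the cell cycle of radial glia and to prolong neurogenesis, and loss of Ythdf2 is known to disturb the proliferation and differentiation of neural progenitors.

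The libraries held between 26540656 and 34837657 counts. Levels are given as TPM (transcript counts scaled to length and library), which divide each count by the merged exon length of its gene and so allow levels to be compared between genes. Replicate 4 stood apart from the others: the chi-square of gene counts per degree of freedom was 18.3 to 23.9 for the pairs of libraries that included it and 9.20 to 12.8 for the other pairs. Hopx, the marker named in the series title, was at 2.58, 3.22, 3.50 and 2.80 TPM. The other basal radial glia markers, Tnc and Ptprz1, were at 218 to 308 TPM and 96.8 to 113 TPM, so that the 3 genes summed to 318 to 424 TPM. Markers of other cell types were present as well, among them 3 intermediate progenitor genes at a summed 429 to 474 TPM. The summed TPM was 4729 to 5715 for 8 radial glia genes, 8756 to 9777 for 5 neuronal genes, 2374 to 4198 for 5 erythroid genes, 15.5 to 34.9 for 5 microglia genes and 2.84 to 4.32 for 4 endothelial genes, and no marker was at 0 in all libraries. Tubb3 alone was at 6263 to 7221 TPM, so the neuronal sum rests mostly on this gene. The m6A genes are used by most cell types. Which of the cells in the libraries supplied their transcripts was not tested, and in bulk RNA fewer cells of a type and less RNA per cell cannot be told apart.

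All 10 m6A genes were expressed, and the highest mean was 105.7-fold the lowest. Ythdf2 was highest at 338 ± 25.1 TPM (SD, n = 4), followed by Fto at 109 ± 4.74 TPM, and Ythdc2 was lowest at 3.20 ± 0.915 TPM. The size of this range depends on the length used: it was 95.1-fold with the longest transcript of each gene as length and 54.6-fold by CPM, which scales counts to the library total without a length correction. The lead of Ythdf2 over Fto depends on it more. The log2 ratio was 1.63 ± 0.083 by exon length, 0.31 ± 0.083 with the longest transcript and 0.12 ± 0.083 by CPM (SD, n = 4; exact permutation p = 0.13, 0.13 and 0.25), and by CPM Ythdf2 was higher in 3 of 4 libraries. The deposited TPM, which divides by the whole gene span with introns, gave larger values. There the range was 123-fold and the log2 ratio of Ythdf2 to Fto 3.82 ± 0.083 (SD, n = 4). For every one of the 20991 genes that had at least 10 counts, edgeR's quasi-likelihood test asked whether its level differed from 1 TPM, at an adjusted p (Benjamini-Hochberg) of 0.05. All 10 members passed the count filter and all 10 were called above 1 TPM. Of all tested genes 65.9% were called above it, and of the 15401 protein-coding genes 75.7%, so the count for the members says little by itself.

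A stricter comparison set each gene against the median TPM of the tested protein-coding genes, which was 8.71 to 9.08 TPM in the 4 libraries. By the same edgeR test 9 of the 10 members were above this median and 1, Ythdc2, was below it. Of all tested genes 36.8% were called above the median and 55.8% below it, and of the protein-coding genes 47.2% were above and 46.4% below. The median of the members' mean levels was 32.0 TPM. By exon length, the mean level of Ythdf2 ranked 460 among the 15401 protein-coding genes, that of Fto 1482, that of Wtap 2529 and that of Ythdc2 10301.

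**Figure D1:**
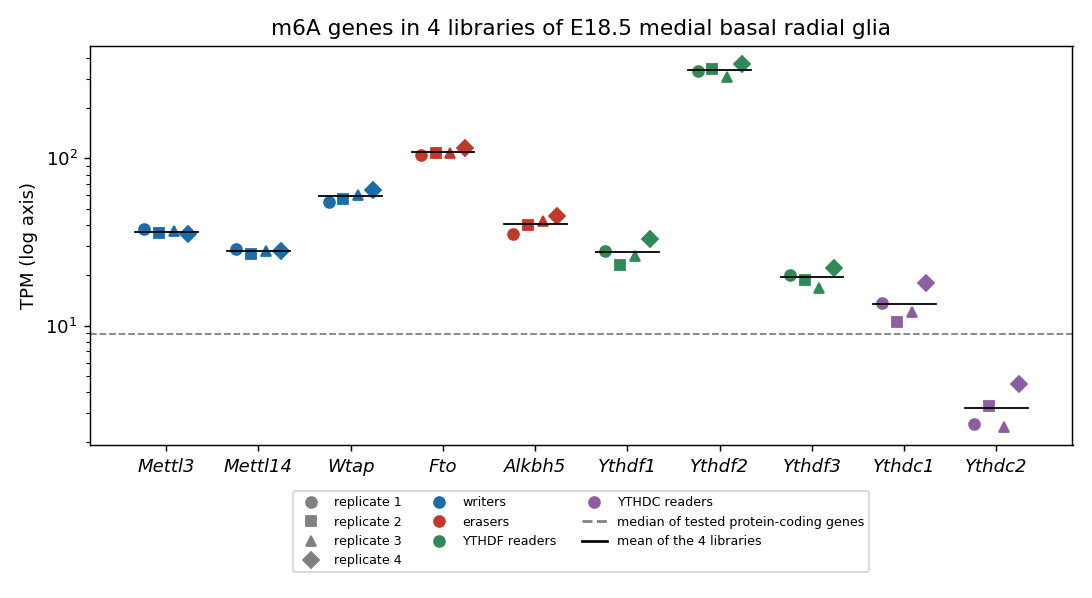
Level of each m6A gene in TPM on a log axis, with 1 symbol per library, coloured by role; the black bar is the mean of the 4 libraries and the dashed line the median of the tested protein-coding genes. Ythdf2 lies above all other members in every library, and Ythdc2 is the only member below the dashed line in every library.

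Among the writers, Wtap was highest, Mettl3 next and Mettl14 lowest, in every library. Mettl3 (ENSMUSG00000022160; GRCm38 chromosome 14, 52294841 to 52305128, minus strand) encodes the catalytic subunit of the writer complex. Its level was 37.6, 35.8, 36.5 and 35.1 TPM in replicates 1 to 4, from 1706, 2048, 1782 and 1466 counts. Mettl14 (ENSMUSG00000028114; chromosome 3, 123368297 to 123386108, minus strand) encodes the partner that holds the RNA and has no catalytic activity of its own. It was at 28.5, 26.6, 27.9 and 28.1 TPM, from 1894, 2224, 1986 and 1717 counts. These were the steadiest members of all 10: the SD of log2 TPM between libraries was 0.042 for Mettl3 and 0.043 for Mettl14, against 0.035 and 0.033 expected from counting alone.

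The log2 ratio of Mettl3 to Mettl14 was 0.38 ± 0.046 (SD, n = 4) and positive in 4 of 4 libraries, which is 1.30-fold. Each such ratio was tested by exact permutation of its sign over the libraries (two-sided), which with 4 libraries gives a p of 0.13 (rounded) at the smallest, and this was the value for Mettl3 over Mettl14. All 45 pairs of members were compared in this way. In 43 of them the gene with the higher mean was higher in all 4 libraries, and none can pass 0.05. The order and size of this ratio depend on length: by CPM it turned to -0.16. With the longest transcript it was 1.57, and on the deposited TPM 0.60. The Mettl3 value is uncertain for another reason, since 933 of its 5076 exonic bases (18.4%) lie on the opposite strand of Tox4 exons, the protocol as described does not mark strand, and Tox4 was at 109 ± 2.79 TPM.

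Wtap (ENSMUSG00000060475; chromosome 17, 12966796 to 12994169, minus strand) encodes the adaptor that brings the methyltransferase pair to nuclear speckles. It was at 54.9, 57.2, 60.4 and 65.0 TPM, from 3071, 4022, 3625 and 3346 counts, all above the highest Mettl3 value. Wtap exceeded Mettl3 by 0.71 ± 0.14 on the log2 scale (SD, n = 4; exact permutation p = 0.13), in 4 of 4 libraries. On the deposited TPM, which divides by the whole gene span with introns, this difference was -0.29.

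The erasers were led by Fto. Fto (ENSMUSG00000055932; chromosome 8, 91313525 to 91668439, plus strand) encodes a demethylase of m6A and of the related mark m6Am next to the cap, and in humans its introns are known for variants linked to body weight. It held 12248, 15696, 13502 and 12434 counts, or 105, 107, 108 and 116 TPM. Alkbh5 (ENSMUSG00000042650; chromosome 11, 60536381 to 60558512, plus strand) encodes a nuclear m6A demethylase needed for male fertility in mice. It was at 35.4, 39.8, 42.0 and 45.15 TPM, from 1896, 2681, 2417 and 2227 counts. The lowest Fto value was far above the highest Alkbh5 value, and the log2 ratio of Fto to Alkbh5 was 1.43 ± 0.099 (SD, n = 4; exact permutation p = 0.13), or 2.69-fold.

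The level of Fto depended on the length it was divided by more than that of any other member. Its gene spans 354915 bases, its merged exons 13031 bases and its longest transcript 4707 bases. With the longest transcript as length Fto was at 228 ± 10.1 TPM (SD, n = 4), and in the deposited TPM table it was at 14.0 ± 0.609 TPM. For 8675 of 9107 genes (95.3%), the deposited count and TPM were related by the gene span within 0.01 on the log2 scale. Compared with exon length, the span places genes with long introns lower. Dividing by exon length assumes that the counts come from exons. Whether reads from introns were counted as well was not tested, so the place of Fto by exon length rests on that assumption. On the deposited scale Fto was below Alkbh5, with a log2 ratio of -1.45, below Mettl3 (-2.14) and below Wtap (-1.85), while by exon length it was above all 3. Fto is called above the median protein-coding level on each of the 3 length scales, by 1.40 on the deposited scale, by 4.65 with the longest transcript and by 3.61 with merged exons (log2; edgeR). Of the Fto exonic bases, 3.44% overlap the antisense genes 4831440D22Rik and Gm45427, which had no row in the deposited count table.

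**Figure D2:**
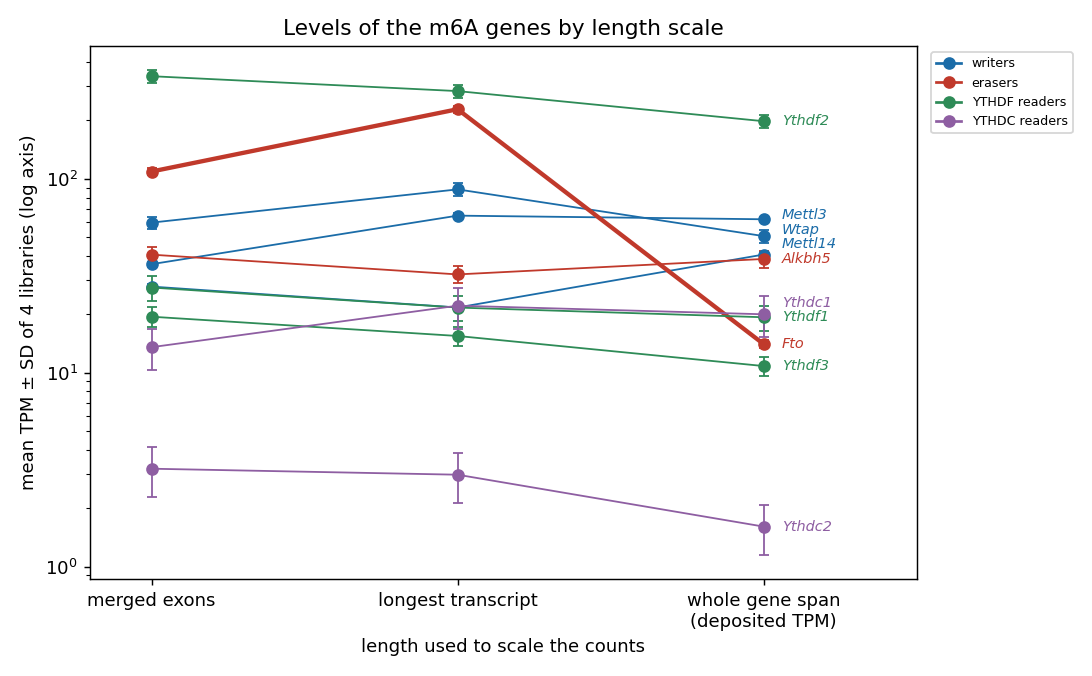
Mean TPM of the 10 members on a log axis, with the SD of 4 libraries as error bars, for 3 lengths used to scale the counts; the Fto line is drawn thicker. Fto moves from 228 TPM with the longest transcript to 14.0 TPM with the whole gene span, while Ythdf2 is highest and Ythdc2 lowest on every scale.

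The erasers summed to 149.5 ± 8.59 TPM and the writers to 123 ± 3.84 TPM (SD, n = 4). This order rests on the length scale of Fto. On the deposited TPM the erasers summed to 52.6 ± 4.47 and the writers to 153 ± 3.13 (SD, n = 4), a log2 ratio of -1.54 against 0.28 by exon length. Alkbh5 alone was at 40.6 ± 4.10 TPM by exon length, close to Mettl3. Alkbh5 exceeded Mettl3 in 3 of 4 libraries, with a log2 ratio of 0.16 ± 0.19 (SD, n = 4; exact permutation p = 0.25), which is within the spread between libraries. That difference was -1.01 with the longest transcript and -0.69 on the deposited scale.

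The cytoplasmic YTHDF readers were unequal. Ythdf2 (ENSMUSG00000040025; chromosome 4, 132184912 to 132212303, minus strand) encodes the reader best known for recruiting the CCR4-NOT deadenylase and speeding the decay of m6A-marked transcripts. It held 13615, 17746, 13466 and 13816 counts, or 333, 345, 307 and 367 TPM. Ythdf1 (ENSMUSG00000038848; chromosome 2, 180904377 to 180920949, minus strand), first described as promoting translation, was at 27.7, 23.1, 26.1 and 32.9 TPM, from 823, 863, 831 and 900 counts. Ythdf3 (ENSMUSG00000047213; chromosome 3, 16183212 to 16217037, plus strand), a reader described as working with the other two, was at 20.1, 18.8, 16.7 and 22.1 TPM, from 965, 1133, 861 and 977 counts. The lowest Ythdf2 value was above the highest value of either paralogue by a wide margin.

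Ythdf2 made up 87.8 ± 0.954% of the summed TPM of the 3 paralogues, Ythdf1 7.14 ± 0.801% and Ythdf3 5.04 ± 0.259% (SD, n = 4). The log2 ratio of Ythdf2 to Ythdf1 was 3.63 ± 0.19, or 12.4-fold, and that of Ythdf2 to Ythdf3 was 4.12 ± 0.085, or 17.4-fold (SD, n = 4; exact permutation p = 0.13 each). Both were positive in 4 of 4 libraries. Ythdf1 exceeded Ythdf3 by 0.50 ± 0.15 on the log2 scale in 4 of 4 libraries (exact permutation p = 0.13), but by CPM the ratio was -0.20, so the order of these paralogues depends on length while that of Ythdf2 does not.

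Close paralogues can share reads, so the transcripts were compared. Of all windows of 50 bases in the annotated transcripts of Ythdf1, Ythdf2 and Ythdf3 (GENCODE M21), 0 occurred in a transcript of another YTHDF gene. The coding sequences of Ythdf1 and Ythdf2 were identical at 67.6% of aligned bases, with a longest identical run of 22 bases. The stretch of 90 coding bases in which they are most alike is shown to let the difference be seen, with capitals at the 11 bases that differ. It lies in 1 exon of each gene, chr2:180911123-180911212 for Ythdf1 and chr4:132204568-132204657 for Ythdf2 (GRCm38, minus strand of both), and starts at coding base 1128 and 1191.
Ythdf1: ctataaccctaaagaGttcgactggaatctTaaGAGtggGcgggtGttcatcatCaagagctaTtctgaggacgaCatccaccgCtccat
Ythdf2: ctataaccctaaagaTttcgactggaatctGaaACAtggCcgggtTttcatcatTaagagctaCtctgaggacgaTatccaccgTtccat
Even here no run of 50 bases is shared. Of the Ythdf2 windows, 7.49% recur in the processed pseudogenes Gm6823 and Gm8401, which held 0 to 5 counts per library. The sources used here do not give how reads that fit several genes were counted.

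The promoters that RefSeq places at these genes (GRCm38.p6, 250 bases before to 50 after the start) were compared as a feature that the choice of members did not use. A promoter was matched for 7 members, and not for Mettl14, Ythdf3 and Ythdc2. All 7 had a GC content above 50% and an observed over expected CpG ratio above 0.6, as did 33.9% of 27025 promoters in the table. The motif TATAAA, searched on both strands, occurred in 0 of the 7 and in 14.2% of all promoters. Those promoters were not restricted to protein-coding or expressed genes, while the 7 members are both. The shares therefore do not show a trait particular to the m6A genes. No link between promoter and level was tested. The promoter of Ythdf2, the most abundant member, is shown with its 32 CpG in capitals, and that of its paralogue Ythdf1, a 12.4-fold less abundant transcript, with its 37. They lie at chr4:132212207-132212506 and chr2:180920887-180921186 on the minus strand.
Ythdf2: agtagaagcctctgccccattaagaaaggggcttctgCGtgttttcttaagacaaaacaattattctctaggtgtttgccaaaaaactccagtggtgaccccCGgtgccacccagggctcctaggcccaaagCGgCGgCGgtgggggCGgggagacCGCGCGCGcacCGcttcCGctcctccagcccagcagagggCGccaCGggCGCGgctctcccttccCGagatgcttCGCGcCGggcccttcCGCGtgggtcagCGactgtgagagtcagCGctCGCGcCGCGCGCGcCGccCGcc
Ythdf1: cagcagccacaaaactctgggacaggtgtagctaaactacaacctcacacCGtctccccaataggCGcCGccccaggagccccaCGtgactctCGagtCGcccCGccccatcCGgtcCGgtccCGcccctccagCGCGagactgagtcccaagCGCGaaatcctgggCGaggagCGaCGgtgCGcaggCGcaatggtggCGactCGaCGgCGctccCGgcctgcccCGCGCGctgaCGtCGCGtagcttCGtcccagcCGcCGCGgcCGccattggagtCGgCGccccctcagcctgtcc

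By exon length the YTHDC readers had the lowest means of the 10 members, but for Ythdc1 this position depends on the scale: it ranked 9 by exon length and 6 with the longest transcript, by CPM and on the deposited TPM. Ythdc2 ranked 10 on all 4 scales. Ythdc1 (ENSMUSG00000035851; chromosome 5, 86804221 to 86836659, plus strand) encodes the nuclear reader that acts in splicing and export of marked transcripts. It was at 13.6, 10.5, 12.1 and 18.0 TPM, from 1657, 1608, 1587 and 2023 counts. Its log2 level lay 0.60 ± 0.11 (SE) above the median protein-coding level (adjusted p = 0.000266 by edgeR), the smallest margin of the 9 members above it. Without replicate 4 this margin was 0.36 (edgeR adjusted p = 0.00129), and without any other single library it was 0.52 to 0.59. Leaving out a library also changes which genes set the median. Relative to 1 TPM the log2 level of Ythdc1 was 3.75 with all libraries and 3.59 without replicate 4. Ythdc1 was below Ythdf3 in 4 of 4 libraries by exon length (log2 ratio of Ythdf3 to Ythdc1 0.54 ± 0.23, SD, n = 4; exact permutation p = 0.13) and above it with the longest transcript (-0.50), by CPM (-0.80) and on the deposited scale (-0.86).

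Ythdc2 (ENSMUSG00000034653; chromosome 18, 44827746 to 44889724, plus strand) encodes an RNA helicase with a YTH domain that is needed for meiosis in mice. It was at 2.57, 3.28, 2.47 and 4.46 TPM, from 204, 328, 211 and 326 counts. Each library's exact Poisson 95% interval lay between 2.15 and 4.97 TPM, a range that covers counting error only. Relative to the median protein-coding level the log2 level of Ythdc2 was -1.48 ± 0.15 (SE), and relative to 1 TPM it was 1.67 ± 0.15 (adjusted p = 1.9e-05 and 5.7e-07 by edgeR). The log2 ratio of Ythdc1 to Ythdc2 was 2.09 ± 0.33 (SD, n = 4; exact permutation p = 0.13), or 4.27-fold. It was larger on the other scales: 2.71 by CPM, 2.91 with the longest transcript and 3.65 on the deposited TPM.

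The whole order by exon length was Ythdf2, Fto, Wtap, Alkbh5, Mettl3, Mettl14, Ythdf1, Ythdf3, Ythdc1 and Ythdc2. Among neighbours in it, Alkbh5 and Mettl3 did not differ beyond their spread, and neither did Mettl14 and Ythdf1, whose log2 ratio was 0.027 ± 0.18 (SD, n = 4; exact permutation p = 0.75). The ranges of Ythdf3 and Ythdc1 also overlapped. Of the 45 pairs, the 4 libraries' ranges did not overlap in 42. The order changed in 4 pairs with the longest transcript, in 5 by CPM and in 11 on the deposited scale.

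Between libraries, the readers of the YTHDC pair varied most and the methyltransferase pair least. The SD of log2 TPM was 0.33 for Ythdc1 and 0.39 for Ythdc2, against 0.035 and 0.091 expected from counting alone. The median over the 10 members was 0.13, and over the 9551 tested protein-coding genes with a mean of 200 or more counts it was 0.14. An SD of 0.3 or more was found in 8.90% of those genes.

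Replicate 4 held the highest level of 8 of the 10 members: Wtap, Fto, Alkbh5, all 3 YTHDF genes, Ythdc1 and Ythdc2. The highest level of Mettl3 and Mettl14 was in replicate 1. Of the 9551 protein-coding genes above, 36.9% were highest in replicate 4. After scaling by TMM, chosen after seeing the data, 8 of 10 members were still highest there, against 32.0% of those genes. The pattern is not particular to the members. By exon length most genes of the pathway lists described below were also highest in replicate 4, among them Cbll1, Hnrnpa2b1 and Nxf1. Others were not, among them Zc3h13, Trmt112, Pcif1, Meioc and Rbm46. Summed microglia markers were at 15.5 TPM in replicate 4 and 26.0 to 34.9 TPM in the others, and endothelial markers at 2.84 TPM and 3.53 to 4.32 TPM. Intermediate progenitor markers were highest in replicate 4, at 474 TPM against 429 to 467 TPM. The radial glia, basal radial glia, neuronal and erythroid sums of replicate 4 lay within the range of the other libraries. The part of any of these cell types, or of the depth of replicate 4, in the higher values was not tested.

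**Figure D3:**
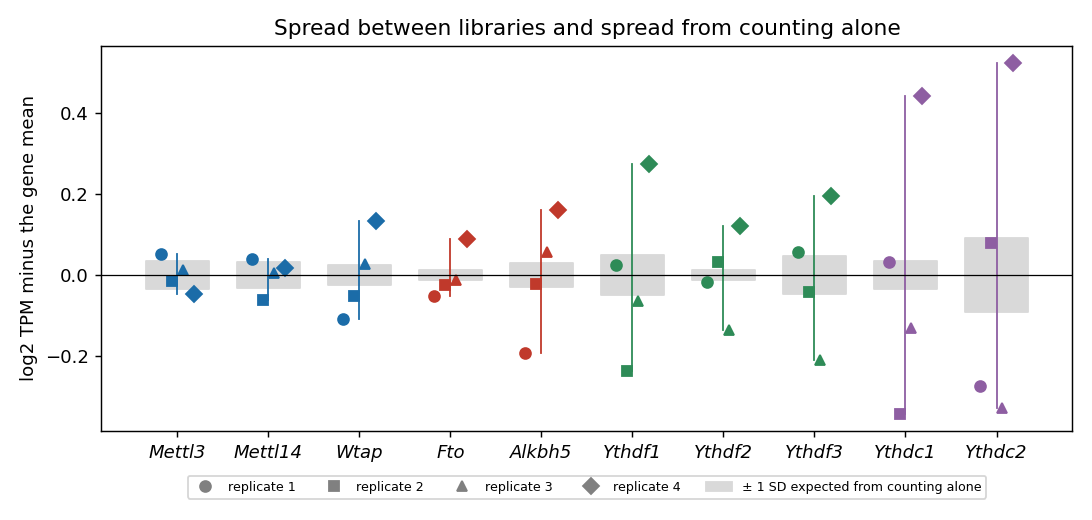
Log2 TPM of each member in each library minus the mean of that member over the 4 libraries; grey boxes show 1 SD either side expected from counting alone. Replicate 4 (diamonds) is the highest point for 8 of 10 members, and Mettl3 and Mettl14 stay closest to their grey boxes.

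The other genes of the pathway were described from 4 lists. By the same edgeR test 65.9% of all tested genes and 75.7% of the protein-coding genes were above 1 TPM. Above the median protein-coding level were 36.8% and 47.2%, and below it 55.8% and 46.4%. Beside these shares the counts for such short lists say little by themselves. Of the 5 partners that complete the writer complex, 5 were above 1 TPM and 5 above the median protein-coding level by edgeR's test, with a median of 33.9 TPM. Cbll1, the ubiquitin ligase Hakai, had the highest mean, at 41.3 to 49.3 TPM, but its range overlapped that of Zc3h13, a zinc finger protein of the complex, at 38.6 to 49.9 TPM, and their means did not differ beyond the spread. Rbm15, an RNA-binding protein that guides the complex, was lowest at 13.7 ± 1.82 TPM (SD, n = 4). On the deposited TPM Rbm15b was highest at 87.2 ± 5.97 and Virma lowest at 13.1 ± 1.80, with Rbm15 at 43.4 ± 5.71 (SD, n = 4). Of Cbll1 exonic bases 17.6% lie opposite another gene.

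Of 5 genes for other RNA adenosine methyltransferases and their activator, 5 were above 1 TPM, 4 above the median level and 1 below it, with a median of 40.8 TPM. Trmt112, a small activator of several methyltransferases, was highest at 153 ± 11.4 TPM, though 39.1% of its exonic bases lie opposite other genes, and by CPM Pcif1, which methylates the base next to the cap, was highest. Of Pcif1 exonic bases 16.9% lie opposite another gene. Zcchc4, which methylates ribosomal RNA, was lowest at 5.40 ± 0.453 TPM (SD, n = 4).

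Of 9 further genes described as m6A readers, 9 were above 1 TPM, 8 above the median level and 1 below it, with a median of 24.9 TPM. Hnrnpa2b1, a nuclear RNA-binding protein, was highest at 971 ± 42.1 TPM, above Ythdf2. Igf2bp2, a protein that stabilises its target transcripts, was lowest at 4.47 ± 1.31 TPM (SD, n = 4), with 2.62 TPM in replicate 2 and 4.54 to 5.56 TPM in the others. On the deposited TPM Igf2bp2 was near 1, at 1.11 ± 0.325 (SD, n = 4), with 0.653 in replicate 2.

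Of 9 partners through which the YTH readers act, 8 were above 1 TPM and 1 below it, and 6 were above the median level and 3 below it, with a median of 19.8 TPM. Nxf1, the export receptor linked to Ythdc1, was highest at 256 ± 8.73 TPM, though with the longest transcript Srsf3, a splicing factor, was above it at 272 ± 21.9 TPM against 213 ± 7.37 TPM (SD, n = 4). By CPM Srsf3 was above Nxf1 as well, at 460 ± 32.4 against 362 ± 12.9 (SD, n = 4). The deposited TPM holds no value for Srsf3. Meioc, the meiotic partner of Ythdc2, was lowest at 0.216 ± 0.148 TPM (SD, n = 4), from 9, 22, 4 and 5 counts. It was the single gene of the 4 lists called below 1 TPM (log2 -2.19 ± 0.49, SE; edgeR adjusted p = 0.00603). Rbm46 was called above 1 TPM only narrowly (log2 0.57 ± 0.24, SE; edgeR adjusted p = 0.0428). On the deposited TPM Rbm46 was at 0.334 ± 0.0787 (SD, n = 4), below 1, so its call depends on the length scale.

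**Figure D4:**
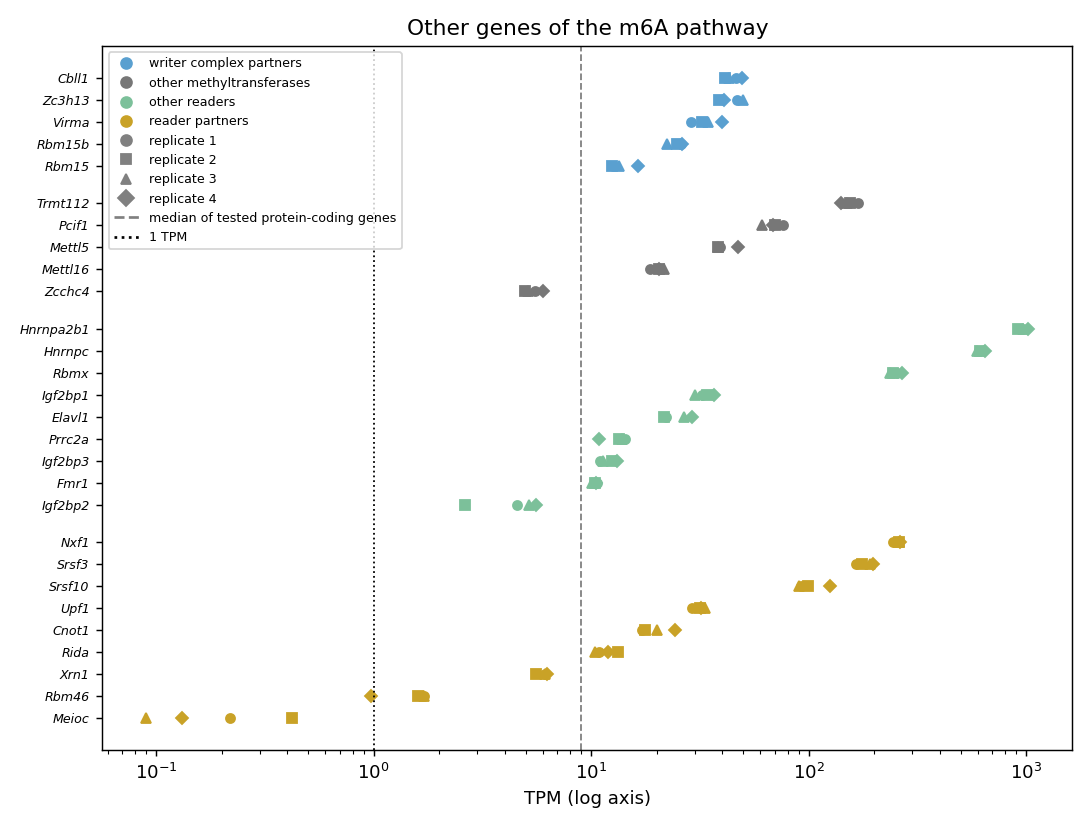
TPM of the 28 other pathway genes on a log axis, with 1 symbol per library, grouped by list and sorted by mean within each; the dotted line marks 1 TPM and the dashed line the median of the tested protein-coding genes. Hnrnpa2b1 is the farthest right at 971 TPM and Meioc the farthest left at 0.216 TPM.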

How the data were processed

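RNA was measured in 4 libraries of 1 group. Per the labels' protocols, reverse transcription was primed on poly-A tails with template switching, and the amplified cDNA was sheared before library preparation. The submitters' processing notes name bcl2fastq 2.19.1, STAR 2.5.2b and the build GRCm38. For the counter, its strand setting and its annotation, the sources used here give nothing. The deposited counts are whole numbers per Ensembl gene. The deposited TPM table holds 15648 genes and was used only as an alternative, because the authors' TPM follow the gene span.

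TPM were recomputed from the counts with merged exon lengths of GENCODE M21, which matched 45143 of 45706 identifiers. Levels were tested by edgeR 4.0.16 (R 4.3.3) in an intercept-only quasi-likelihood fit, two-sided, whose offset is the count expected at the level tested. Its F was formed from edgeR's deviances, because the package's own test needs a second coefficient. It was also run on simulated counts that had the same dispersion for every gene, unlike these libraries. The outcome of that run is not given here. DESeq2 1.42.0 was an alternative. The cut of 1 TPM, the lists and the members were chosen with earlier results of these data known. All members are named, with the highest and lowest gene of each pathway list and those not above 1 TPM. Library pairs differed beyond counting noise, so no library was counted as a duplicate. Correlations between genes were not computed over 4 libraries.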

Additional observations from a re-analysis of the deposited data

Results flagged for a closer look

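A single library lay far from the other 3 for 3 of the 38 genes screened, none of them among the 10 members; chance flags about 1 in 20 such groups. Mettl5, a methyltransferase of ribosomal RNA, was at 47.6 TPM in replicate 4 and at 38.2 to 39.3 TPM in the others, a gap of 0.884 of the whole range. Nxf1 was lowest in replicate 1, at 243 TPM against 259 to 262 TPM, a gap of 0.864. Rbm46, a partner of Ythdc2 in meiosis, was lowest in replicate 4, at 0.971 TPM against 1.60 to 1.71 TPM, a gap of 0.853, and its counts were 38, 45, 41 and 20.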

How the results depend on the processing

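The counts of members above and below both levels (10 and 0 for 1 TPM, 9 and 1 for the median) were the same with the longest transcript, the deposited TPM scale, TMM or DESeq2 size factors, no filter on low counts, protein-coding genes alone, the DESeq2 test and each library left out. Ratios between members depended on the length scale, which no value here decides. On the deposited TPM the log2 ratio of Fto to Wtap was -1.85, to Alkbh5 -1.45 and to Mettl3 -2.14, that of Wtap to Mettl3 -0.29, of Alkbh5 to Mettl3 -0.69, of Ythdf3 to Ythdc1 -0.86 and of the summed erasers to the summed writers -1.54, a comparison chosen after seeing the data. With the longest transcript the ratio of Alkbh5 to Mettl3 was -1.01 and of Ythdf3 to Ythdc1 -0.50. By CPM the ratio of Mettl3 to Mettl14 was -0.16, of Ythdf1 to Ythdf3 -0.20 and of Ythdf3 to Ythdc1 -0.80. The ratio of Mettl14 to Ythdf1 lay between -0.031 and 0.11 with 1 library left out at a time, the lowest being without replicate 2. The YTHDF shares on the deposited TPM were 8.45% for Ythdf1, 86.8% for Ythdf2 and 4.73% for Ythdf3, and by CPM 5.23%, 88.8% and 5.98%. No paired analysis was possible because the labels give a single group. Depth limits Meioc most among the genes named, and strand limits Mettl3, Cbll1, Trmt112 and Pcif1.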
